A study of Mus with 8 samples.

Results

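Prep1, the gene that the shRNA of the P cells targets, and 8 other genes of the TALE homeobox class were followed through the RNA-seq data of 3T3-L1 cells. They were chosen by name: Prep1 and Prep2 (listed as Pknox1 and Pknox2), Meis1, Meis2, Meis3, Pbx2, Pbx3, Tgif1 and Tgif2. These are 9 of the 24013 genes counted, and all 9 had enough reads to be tested. 3T3-L1 is a mouse line of preadipocytes that turns into fat cells when induced with hormones. C cells were infected with a lentivirus carrying a scrambled shRNA and P cells with a lentivirus carrying an shRNA against Prep1, and both were selected with puromycin. RNA was taken at day −2, before induction, and at day 1, after a change to medium with 1 μM dexamethasone, 0.5 mM IBMX and 1 μg/ml insulin. There were 2 biological replicas per condition. The labels name a single Prep1 down-regulated line, and whether it was a pool or a clone is not given in the sources used here.

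TALE proteins carry a homeodomain with extra residues in a loop. Prep and Meis proteins bind Pbx proteins through related domains, so that they can compete for them, and the dimers bind DNA alone or with Hox proteins. Binding to Prep or Meis also keeps Pbx proteins in the nucleus. Tgif proteins are the repressors of the class and are known for binding Smad proteins and recruiting corepressors in the TGF-beta pathway.

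The libraries held 20428816 to 27614353 counts. Values are given as CPM, counts divided by the TMM-scaled total of the library and multiplied by 1e+06, a level that may be compared between libraries for 1 gene but not between genes, since gene length was not taken into account. The lowest count of a member in any library was 129, with a counting error of 8.81%. A gene passed the test when the adjusted p-value of edgeR's quasi-likelihood test, over all 13339 genes tested, was under 0.1. A gene was called when its ratio was also over 2 or under 0.5, the thresholds of the study. The 8 preadipocyte or fibroblast markers, such as Col1a1 and Pdgfra, had over 3 counts in every library, while the macrophage, endothelial, muscle and epithelial markers summed to at most 8.05 CPM in a library. Neural markers summed to at most 19.8 CPM. Replica 1 of P cells at day −2 stood apart. Its fibroblast markers summed to 78376 CPM against 16071 to 25809 in the other 7 libraries. For the 5600 genes with a mean log2 CPM above 5, the replicas of the P cells before induction differed with an SD of 0.795 in log2 units, and those of the other conditions with an SD of 0.121 to 0.261. Many of the results that rest on this library are given with and without it. Leaving out 1 library leaves 1 library in its condition, and the spread is then taken from the other conditions. An adjusted p-value from such a fit does not measure the spread within that condition. The 8 adipocyte markers, among them Lpl, Pparg, Adipoq and Fabp4, summed to 80.8 and 80.9 CPM in the C replicas before induction. The P replicas then had sums of 237 and 252. At day 1 the sums were 186 in both C replicas and 571 and 614 in P cells. Lep had no more than 3 counts in any library. Lpl was the largest part of every sum, with a mean before induction of 58.2 CPM without and 191 with the Prep1 shRNA. The sum was higher in P than in C cells and at day 1 than at day −2, but the markers did not move alike. Of the 7 tested, 6 passed as higher in P cells before induction. Pparg did not, with a mean of 19.4 CPM without the Prep1 shRNA and 16.7 with it (log2 ratio −0.21), and its replicas overlapped. In C cells Lpl went from a mean of 58.2 to 130 CPM, while Fabp4 went from 2.21 to 1.09 and Adipoq had at most 3 counts in any C library. The part of these markers in the results that follow was not tested. In RNA from whole cultures, fewer cells with a transcript and less of it in each cell cannot be told apart.

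Prep1 RNA was lower in P cells at both times and higher at day 1 in both kinds of cell. At day −2 it had 28.1 and 26.5 CPM in the C replicas and 17.3 and 18.3 in the P replicas. At day 1 the C replicas had 38.1 and 36.5 CPM and the P replicas 23.6 and 23.8. The replicas lay close together in every condition and no 2 conditions overlapped. P cells therefore held 65.2% of the Prep1 level of C cells at day −2 and 63.6% at day 1. Relative to C cells, the log2 ratio was −0.62 at day −2 (standard error 0.14, edgeR adjusted p = 0.0558) and −0.65 at day 1 (standard error 0.14, edgeR adjusted p = 0.0575). From day −2 to day 1, Prep1 RNA rose by a log2 ratio of 0.45 in C cells (standard error 0.14, edgeR adjusted p = 0.0551) and 0.42 in P cells (standard error 0.14, edgeR adjusted p = 0.0791). The induced P cells had 23.7 ± 0.125 CPM (SD, n = 2), against 27.3 ± 1.16 (SD, n = 2) in C cells before induction. The direction of all 4 ratios was the same whichever library was left out. The knockdown no longer passed the test when any 1 library other than those of P cells at day −2 was left out, with edgeR adjusted p-values from 0.139 to 0.368 at day −2 and from 0.179 to 0.446 at day 1. The induction of Prep1 no longer passed it under the same omissions, with edgeR adjusted p-values from 0.132 to 0.287 in C cells and from 0.150 to 0.320 in P cells.

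**Figure D1:**
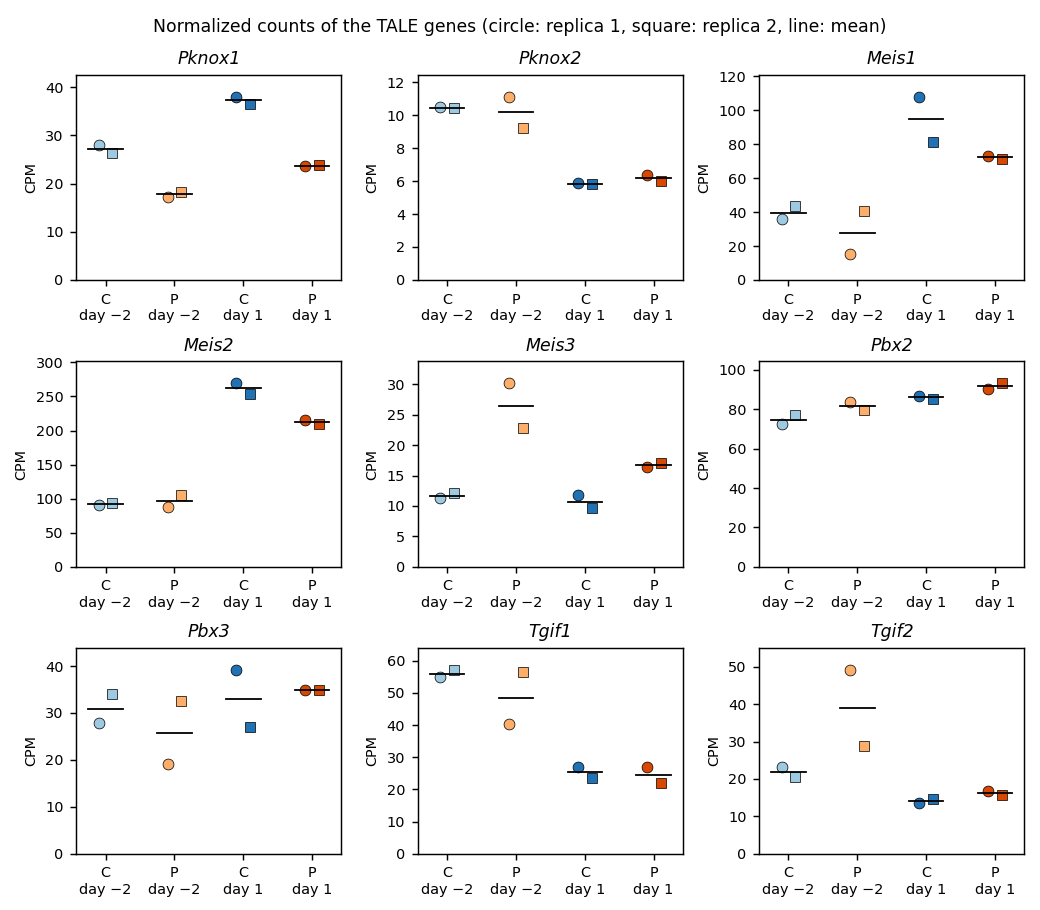
Normalized counts (CPM, linear axis from 0) of the 9 TALE genes in each library, by condition. Circles are replica 1, squares are replica 2 and lines are the means of 2 replicas; Prep1 (Pknox1) lies at 17.3 and 18.3 CPM in P cells at day −2 and at 38.1 and 36.5 CPM in C cells at day 1, while Meis1, Pbx3, Tgif1 and Tgif2 spread widely between the replicas of P cells at day −2.

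Between P and C cells at day −2, 2 of the 9 genes passed the test, Prep1 (lower) and Meis3 (higher), where 11.3% of all genes did (7.62% higher and 3.72% lower), and 1 was called, Meis3, where 6.98% were. The median log2 ratio of the members was −0.04, and that of all genes 0.01. Meis3 encodes a Pbx partner of the Meis group. It had 11.2 and 12.1 CPM in the C replicas and 30.1 and 22.8 in the P replicas at day −2. Both P replicas lay above both C replicas. The log2 ratio was 1.18 (standard error 0.20, edgeR adjusted p = 0.0225), 0.98 without replica 1 of P cells and 1.36 without replica 2. Without replica 1 or replica 2 of C cells at day −2, Meis3 no longer passed the test (edgeR adjusted p = 0.237 and 0.195), although its log2 ratio was 1.13 and 1.23. At day 1, Meis3 had 11.8 and 9.63 CPM in the C replicas and 16.4 and 17.0 in the P replicas. These did not overlap either, but the log2 ratio of 0.64 had an edgeR adjusted p of 0.168. It passed the test without replica 1 of P cells at day −2 (log2 ratio 0.62, edgeR adjusted p = 0.0108) and without replica 2 (0.64, edgeR adjusted p = 0.0096).

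The other genes of the Meis and Prep groups did not pass the test between P and C cells. Meis2 had 90.9 and 93.6 CPM in the C replicas and 88.0 and 105 in the P replicas at day −2, which overlapped, with a log2 ratio of 0.07 (standard error 0.14). At day 1 it had 269 and 254 CPM in the C replicas and 215 and 210 in the P replicas, which did not overlap. That log2 ratio was −0.30 (standard error 0.14, edgeR adjusted p = 0.367), and it passed the test without replica 1 (edgeR adjusted p = 0.0261) or replica 2 (edgeR adjusted p = 0.0338) of P cells at day −2. Prep2, the paralog of Prep1, had log2 ratios of −0.04 at day −2 and 0.08 at day 1, with standard errors of 0.18 and 0.19. At day −2 the C replicas had 10.5 and 10.4 CPM and the P replicas 11.1 and 9.24, and the P replicas lay on both sides of the C replicas.

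The value of Meis1 rested on a single library. Meis1, another Pbx partner of the Meis group, had 35.9 and 43.5 CPM in the C replicas of day −2 and 15.2 and 40.4 in the P replicas. Only replica 1 of P cells was low, and replica 2 lay within the range of the C cells. The log2 ratio was −0.51 (standard error 0.41, edgeR adjusted p = 0.442), 0.03 without replica 1 of P cells and −1.39 without replica 2. At day 1 Meis1 had 108 and 81.5 CPM in the C replicas and 73.2 and 71.6 in the P replicas, with a log2 ratio of −0.39 and a standard error of 0.41. That ratio had an edgeR adjusted p of 0.770, and of 0.0705 without replica 1 and 0.0866 without replica 2 of P cells at day −2.

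The Pbx genes, whose proteins are the partners of both Prep and Meis, did not pass the test between P and C cells. Pbx2 had 72.5 and 77.2 CPM in the C replicas and 83.9 and 79.9 in the P replicas at day −2. Its log2 ratios of P over C cells were 0.13 at day −2 and 0.09 at day 1, each with a standard error of 0.13. Scaled by library totals in place of TMM, the ratio of Pbx2 at day −2 was −0.06, in a setting where all genes had a median of −0.18. Pbx3 had 27.9 and 34.0 CPM in the C replicas and 19.1 and 32.6 in the P replicas at day −2, and the low value was again that of replica 1. Its log2 ratio was −0.26 (standard error 0.30), 0.09 without replica 1 and −0.70 without replica 2 of P cells. At day 1 both P replicas of Pbx3 had 34.8 CPM, between the 39.1 and 26.9 of the C replicas.

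The Tgif genes had ratios of opposite sign at day −2, and neither passed the test. Tgif2 had 23.1 and 20.6 CPM in the C replicas and 49.1 and 28.7 in the P replicas, with the higher value again in replica 1. The groups did not overlap, as was true of 4 of the 9 members and 53.8% of all genes. The log2 ratio was 0.83 (standard error 0.26, edgeR adjusted p = 0.115). It was 0.40 without replica 1 and 1.16 without replica 2 of P cells. Tgif2 passed the test in DESeq2 with all libraries (adjusted p = 0.0494). Tgif1 had 54.8 and 57.0 CPM in the C replicas and 40.2 and 56.6 in the P replicas, which gave a log2 ratio of −0.21 (standard error 0.21). It was 0.03 without replica 1 of P cells and −0.48 without replica 2. At day 1 the log2 ratios were −0.05 for Tgif1 and 0.20 for Tgif2, with standard errors of 0.21 and 0.26, and neither passed the test.

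**Figure D2:**
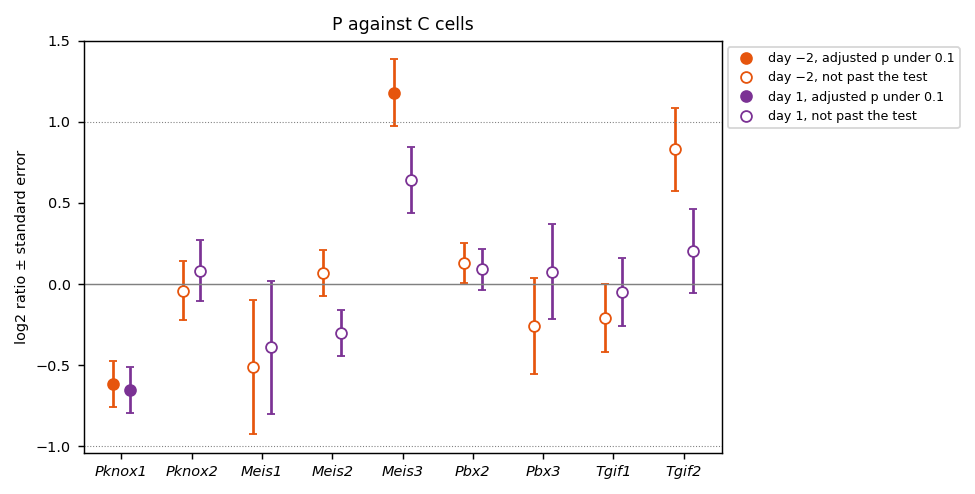
Log2 ratio of P over C cells (vertical axis) for each TALE gene at day −2 (orange) and day 1 (purple), with standard errors from edgeR. Filled points passed the test and dotted lines mark the ratio threshold; Prep1 (Pknox1) lies at −0.62 and −0.65, and Meis3 at 1.18 and 0.64.

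**Figure D3:**
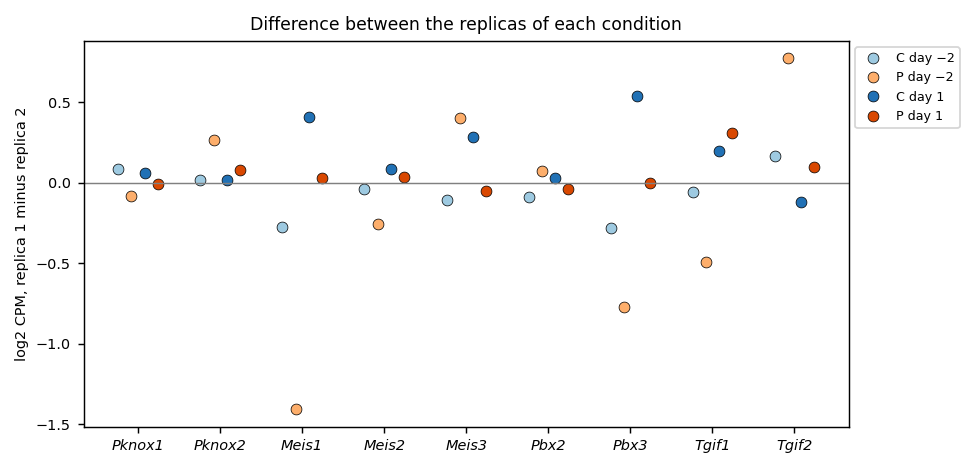
Log2 CPM of replica 1 minus replica 2 (vertical axis) for each TALE gene in the 4 conditions. The P cells at day −2 span −1.41 (Meis1) to 0.77 (Tgif2), whereas Prep1 (Pknox1) stays between −0.08 and 0.09 in all conditions.

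Prep1 itself was among the steadiest of these genes between replicas. The difference between its replicas lay between −0.08 and 0.09 on the log2 scale in all 4 conditions, also in P cells at day −2, where the SD of this difference over all genes was 1.00. In that condition Meis1, Pbx3 and Tgif1 were lower in replica 1, by log2 differences of −1.41, −0.77 and −0.49, and Meis3 and Tgif2 were higher, by 0.40 and 0.77. Meis1 and Pbx3 also had the largest differences between the replicas of C cells, −0.27 and −0.28 at day −2 and 0.41 and 0.54 at day 1. The difference between the P replicas before induction had a Spearman correlation of −0.13 with the span of the gene in the genome, over 5593 genes. Its median was 0.21 in the 20% of genes with the shortest span and −0.01 in the 20% with the longest. By their span, Prep2, Meis1, Meis2 and Pbx3 fell in the range of the longest 20%. Not all 4 were among the 5593 genes, which had a mean log2 CPM above 5. Of these 4, Meis1, Meis2 and Pbx3 were lower and Prep2 higher in replica 1. The part of this in the values of the members was not tested.

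Only Prep1 passed the test between P and C cells at day 1, where 6.15% of all genes did (2.73% higher and 3.42% lower), and no member was called (4.06% of all genes). The CPM of P and C cells did not overlap for 7 of the 9 members, against 60.5% of all genes. When replica 1 of P cells at day −2 was left out of the model, 3 members passed the test at day −2 (19.6% of all genes) and 4 at day 1 (28.9%). These were Prep1, Meis3 and Tgif2 at day −2, and Prep1, Meis1, Meis2 and Meis3 at day 1. With replica 2 left out, 6 passed at day −2, where 65.0% of all genes did, and 4 at day 1, where 29.4% did. Without either C replica at day −2, 0 passed in both comparisons, where 1.34% to 1.38% of all genes passed at day −2 and 2.39% at day 1. Without any 1 of the day 1 libraries, 1 member passed at day −2 and 0 at day 1, where 4.08% to 4.82% and 0.446% to 1.18% of all genes did. The number of genes past the test thus moved with the library left out, for all genes as for the members.

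Members rose and fell from day −2 to day 1, a difference called induction here. It also holds the time in culture and the change from BCS to FBS serum, which cannot be told apart from the hormones. In C cells, 5 of the 9 genes passed the test at day 1 against day −2, Prep1, Meis1 and Meis2 higher and Prep2 and Tgif1 lower, where 35.6% of all genes passed (18.1% higher and 17.4% lower). Of these 3 were called, where 20.4% of all genes were. In P cells 7 passed, the same 5 genes in the same directions and also Meis3 and Tgif2, both lower. There 31.4% of all genes passed (14.0% higher and 17.4% lower), and 3 members were called against 18.0% of all genes. The members had a median log2 ratio of 0.09 in C cells and 0.17 with the Prep1 shRNA, and all genes one of −0.01 and 0.02. The day −2 and day 1 libraries did not overlap for 7 members in C cells (77.7% of all genes) and for 9 in P cells (60.6% of all genes). Each library enters both a comparison of P with C cells and one of the 2 days, so that these are not independent of each other. Without replica 1 of P cells before induction, 7 members passed in C cells (61.3% of all genes), with Pbx2 and Tgif2 added, and 7 in P cells (42.2% of all genes).

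Meis2 rose in both kinds of cell. It went from 90.9 and 93.6 to 269 and 254 CPM in C cells and from 88.0 and 105 to 215 and 210 in P cells. All 4 libraries of day 1 were above all 4 of day −2. The log2 ratio was 1.50 in C cells (standard error 0.14, edgeR adjusted p = 7.1e-04) and 1.14 in P cells (standard error 0.14, edgeR adjusted p = 0.00271). Both passed the test under all 17 alternatives tried. Meis1 had a similar direction and a much larger error, from 35.9 and 43.5 to 108 and 81.5 CPM in C cells. Its log2 ratios were 1.26 in C cells (standard error 0.42, edgeR adjusted p = 0.0672) and 1.38 in P cells (standard error 0.42, edgeR adjusted p = 0.0594). In P cells the ratio of Meis1 was 0.83 without replica 1 at day −2 and 2.26 without replica 2. Meis1 no longer passed the test in either kind of cell when any 1 library other than those of P cells at day −2 was left out, with edgeR adjusted p-values from 0.118 to 0.290 in C cells and from 0.106 to 0.211 in P cells.

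Prep2 fell while Prep1 rose. Prep2 went from 10.5 and 10.4 to 5.88 and 5.81 CPM in C cells and from 11.1 and 9.24 to 6.37 and 6.02 in P cells. The 4 values of day 1 lay below the 4 of day −2. The log2 ratios were −0.84 in C cells (standard error 0.18, edgeR adjusted p = 0.0175) and −0.71 in P cells (standard error 0.19, edgeR adjusted p = 0.0367). With 1 library left out, the fall in P cells had log2 ratios from −0.84 to −0.59. In C cells this no longer passed the test when any 1 C library was left out (edgeR adjusted p from 0.107 to 0.118), and in P cells when either P library at day 1 was (0.187 and 0.232).

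The Tgif genes had lower values at day 1, and Tgif1 fell in both kinds of cell while Tgif2 passed the test in P cells. Tgif1 went from 54.8 and 57.0 to 27.0 and 23.6 CPM in C cells, with a log2 ratio of −1.14 (standard error 0.21, edgeR adjusted p = 0.00941) that passed the test under all 17 alternatives. In P cells it went from 40.2 and 56.6 to 27.1 and 21.9 CPM, with a log2 ratio of −0.98 (standard error 0.21, edgeR adjusted p = 0.0196). With 1 library left out, this ratio ran from −1.22 to −0.71. Without replica 2 of P cells at day 1 that ratio was −0.83 and did not pass (edgeR adjusted p = 0.174). Tgif2 went from 49.1 and 28.7 to 16.7 and 15.7 CPM in P cells, with a log2 ratio of −1.26 (standard error 0.26, edgeR adjusted p = 0.0172), and of −0.83 without replica 1 at day −2 and −1.59 without replica 2. Without replica 1 or 2 of P cells at day 1, Tgif2 did not pass (edgeR adjusted p = 0.116 and 0.139). In C cells Tgif2 had 23.1 and 20.6 CPM at day −2 and 13.5 and 14.7 at day 1, a log2 ratio of −0.64 with an edgeR adjusted p of 0.118. It passed the test there without replica 1 or 2 of P cells at day −2 (edgeR adjusted p = 0.00208 and 0.00154).

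Meis3 fell in P cells, from 30.1 and 22.8 to 16.4 and 17.0 CPM, with a log2 ratio of −0.66 (standard error 0.20, edgeR adjusted p = 0.0587). This did not pass the test without either C library at day −2 (edgeR adjusted p = 0.124 for both) or without replica 1 or 2 of P cells at day 1 (0.270 and 0.249). In C cells Meis3 had a log2 ratio of −0.12 (standard error 0.20) and its replicas overlapped. Pbx2 and Pbx3 did not pass the test in either kind of cell. Pbx2 went from 72.5 and 77.2 to 87.0 and 85.4 CPM in C cells, a log2 ratio of 0.20 (standard error 0.13, edgeR adjusted p = 0.276). That ratio passed without replica 1 or 2 of P cells at day −2 (edgeR adjusted p = 0.0550 and 0.0667). The log2 ratio of Pbx2 in P cells was 0.17 (standard error 0.13). Pbx3 had log2 ratios of 0.09 in C cells and 0.43 in P cells, with standard errors of 0.29 and 0.30, and the latter was 0.09 without replica 1 and 0.88 without replica 2 of P cells at day −2 (edgeR adjusted p = 0.00862 for the last).

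**Figure D4:**
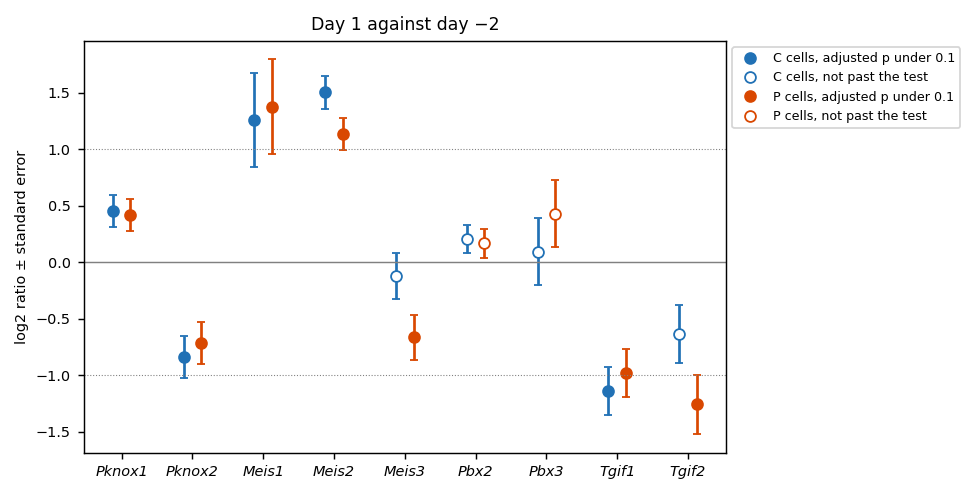
Log2 ratio of day 1 to day −2 (vertical axis) for each TALE gene in C cells (blue) and P cells (orange), with standard errors from edgeR. Filled points passed the test and dotted lines mark the ratio threshold; Meis2 lies at 1.50 and 1.14, and Tgif1 at −1.14 and −0.98.

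Whether the change from day −2 to day 1 differed between the P and the C cells was tested by the interaction term. It passed for 0 of the 9 members in edgeR, where 2.37% of all genes passed. With an unadjusted p under 0.05 there were also 0 members, in edgeR and in DESeq2, and the lowest unadjusted p in edgeR was 0.101, that of Meis3. The response of Prep1 differed by −0.04 on the log2 scale with a standard error of 0.20, that of Meis2 by −0.37 (standard error 0.20), that of Meis3 by −0.54 (standard error 0.29) and that of Tgif2 by −0.63 (standard error 0.37). Without replica 1 of P cells at day −2, Meis2 passed alone, with a difference of −0.52 (edgeR adjusted p = 0.0529), where 10.6% of all genes passed. Without replica 2, 60.0% of all genes passed, and so did 5 members, Tgif2 (−0.96), Meis3 (−0.73), Meis1 (1.00), Pbx3 (0.78) and Tgif1 (0.43), of which Meis1, Pbx3 and Tgif1 had the opposite sign without replica 1.

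Because Prep and Meis proteins share the Pbx proteins as partners, the counts of Meis and Pbx genes were also taken per count of Prep1 in the same library. This ratio does not depend on the scaling of the libraries, and it is compared here only between libraries. At day −2 there were 3.24 and 3.54 Meis2 counts per Prep1 count in the C replicas and 5.10 and 5.75 in the P replicas. At day 1 the C replicas had 7.07 and 6.97 and the P replicas 9.09 and 8.82. The 4 conditions did not overlap. The mean ratio at day −2 was 3.39 ± 0.215 in the C replicas and 5.43 ± 0.457 in the P replicas, and it was 7.02 ± 0.0723 and 8.96 ± 0.194 at day 1 (SD, n = 2 each). Meis3 per Prep1 went from 0.429 ± 0.0405 in C cells to 1.50 ± 0.354 in P cells at day −2, and from 0.286 ± 0.0317 to 0.703 ± 0.0149 at day 1 (SD, n = 2 each). Pbx2 per Prep1 was 2.75 ± 0.240 in C cells and 4.61 ± 0.351 in P cells at day −2, and 2.31 ± 0.0383 and 3.87 ± 0.0605 at day 1 (SD, n = 2 each). Meis1 per Prep1 overlapped between the P and the C replicas of day −2. Prep1 is the target of the shRNA, so a gene whose own level is unchanged also has more counts per Prep1 count in P cells. For Meis2 the log2 ratio of P over C cells was 0.07 before induction and −0.30 after it, and for Pbx2 0.13 and 0.09. None of these passed the test. A higher value per Prep1 count is thus not by itself a rise of Meis2 or Pbx2. Both P replicas of Pbx2 did lie above both C replicas on each day, by mean ratios of 1.09 and 1.07. P and C cells did not overlap for 53.8% of all genes at day −2 and 60.5% at day 1. All ratios per Prep1 count are given as a description and were not tested.

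**Figure D5:**
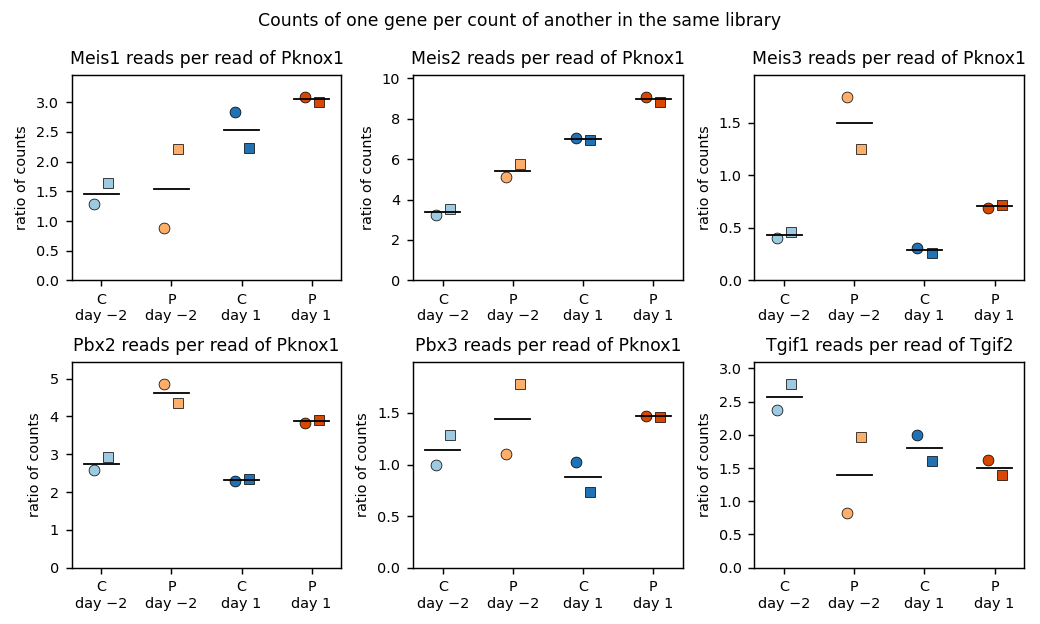
Counts of 1 gene per count of another in the same library (linear axis from 0), by condition; circles are replica 1, squares replica 2 and lines the mean of 2 replicas. Meis2 counts per Prep1 (Pknox1) count step from 3.39 in C cells at day −2 to 8.96 in P cells at day 1 without overlap. The lower Prep1 level of P cells by itself raises the values per Prep1 count there.

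Within the Tgif pair, there were 2.37 and 2.77 Tgif1 counts per Tgif2 count in C cells at day −2 and 2.00 and 1.61 at day 1. The P replicas had 0.819 and 1.97 at day −2 and 1.62 and 1.39 at day 1. C cells at day −2 lay above all other libraries, and P cells at day −2 held the widest spread.

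Across the 8 libraries, the log2 CPM of the members followed each other in a few ways, given here as a description, since the libraries share 4 conditions. Prep2 and Meis2 were opposed, with a Pearson correlation of −0.99, as were Meis1 and Tgif2 (−0.97) and Prep1 and Meis3 (−0.92). Prep2 and Tgif1 went together (0.90), and so did Meis1 and Meis2 (0.88). Pbx2 had a correlation of 0.04 with Prep1, and 0.38 with library totals in place of TMM. Among 10895 other genes with a mean of at least 50 counts, the 3 most like Prep1 were Rhou, a small GTPase, Usp8, a deubiquitinase, and Aldh3a2, an aldehyde dehydrogenase of fatty aldehydes. Their correlations were 0.995, 0.995 and 0.990, and 0.974, 0.996 and 0.989 with library totals. Usp8 had 103 and 92.4 CPM in the C replicas and 65.1 and 71.6 in the P replicas at day −2. At day 1 the values were 135 in both C replicas and 88.8 and 88.3 in the P replicas.

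Other genes of the class and around it were taken from lists, to be read against the shares of all genes given above. Of 10 further TALE genes, 6 were tested, and Irx4, Irx6, Tgif2lx1 and Tgif2lx2 had at most 3 counts in any library. Of the 6, 2 passed the test as higher in P cells at day −2 and 0 as lower. The median log2 ratio over the 6 was 0.96, against 0.01 over all genes, and it was 0.23 without replica 1 of P cells, with the same numbers past the test. Irx2, a TALE gene of the Iroquois group, had 13.8 and 14.2 CPM in the C replicas and 57.0 and 24.0 in the P replicas at day −2. Its log2 ratio was 1.53 (standard error 0.37, edgeR adjusted p = 0.0666), and 0.79 without replica 1 of P cells (edgeR adjusted p = 0.00661). Mkx, a repressor known from tendon, had 8.09 and 8.95 CPM in the C replicas and 16.8 and 14.8 in the P replicas at day −2. Its log2 ratio was 0.89 (standard error 0.17, edgeR adjusted p = 0.0294), and 0.81 without replica 1 of P cells. Mkx also rose by induction, by a log2 ratio of 1.04 in C cells and 0.67 in P cells (edgeR adjusted p = 0.00522 and 0.0302). At day 1, 0 of these 6 genes passed the edgeR test between the P and the C cells, and 2 passed, both higher, without replica 1 of P cells before induction.

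Of 17 genes for proteins that bind TALE proteins or act as their corepressors, 1 passed between P and C cells at day −2 and 0 at day 1 (1 and 4 without replica 1 of P cells before induction), with median log2 ratios of 0.14 and 0.02 (−0.04 and −0.0056 without it). It was Pbxip1, which encodes a Pbx-binding protein. This gene had a mean of 45.7 CPM without and 135 with the Prep1 shRNA, with a log2 ratio of 1.56 (its standard error was 0.39, edgeR adjusted p = 0.0693) that was 0.79 without replica 1 of P cells (edgeR adjusted p = 0.0132). By induction, Pbxip1 rose in C cells by a log2 ratio of 1.27 (edgeR adjusted p = 0.0525). In all, 5 of the 17 passed in C cells (1 higher, 4 lower) and 6 in P cells (0 higher, 6 lower), and without replica 1 of P cells before induction 9 (2 higher, 7 lower) and 8 (1 higher, 7 lower). The interaction of Pbxip1 was −1.79 (edgeR adjusted p = 0.218), and −1.04 without that replica (edgeR adjusted p = 0.0202). Mybbp1a, which encodes a protein that binds Prep1, fell in both, from a mean of 965 to 483 CPM in C cells and from 1061 to 487 in P cells (edgeR adjusted p = 0.0175 and 0.0140). Its log2 ratio in P cells was −1.125, and −0.78 without replica 1 of P cells before induction. Smad3, a partner of Tgif proteins, fell by induction in P cells, from a mean of 88.0 CPM at day −2 to 41.5 at day 1. That log2 ratio was −1.08 (edgeR adjusted p = 0.0124), and −0.82 without replica 1 of P cells before induction. In C cells the log2 ratio of Smad3 by induction was −0.06. Between P and C cells Smad3 did not pass the test with all 8 libraries. Its log2 ratio there was 0.26 at day −2 and −0.77 at day 1 (edgeR adjusted p = 0.429 and 0.109). Without replica 1 of P cells before induction these ratios were −0.0025 and −0.79, and the interaction of Smad3 was −0.79 against −1.02 with all libraries.

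Among the genes reported elsewhere as regulated by Prep1 or Meis1, Hoxa9 and Hoxb1 had at most 6 counts in any library and were not tested. Epas1, a hypoxia-inducible factor, was higher in the P cells of both days, by log2 ratios of 1.65 and 2.06 (edgeR adjusted p = 0.0113 and 0.00704). Without replica 1 of P cells before induction these ratios were 1.58 and 2.04. Hoxb2 was higher at day −2, by a log2 ratio of 1.21 (edgeR adjusted p = 0.0819), or 0.65 without replica 1 of P cells (edgeR adjusted p = 0.0414). Of 39 Hox genes, whose proteins bind DNA with Pbx partners, 23 were tested, and 5 passed the test as higher and 0 as lower in P cells at day −2, with a median log2 ratio of 0.69. At day 1, 1 passed as higher and 0 as lower, with a median of 0.05. Without replica 1 of the P cells before induction, 24 Hox genes were tested. Of these, 4 passed as higher and 0 as lower at day −2 (median 0.39), and 2 as higher and 2 as lower at day 1 (median 0.03).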

How the data were processed

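RNA-seq was made on an Ion Torrent system. Artifacts were eliminated by the authors with the FASTX-Toolkit before alignment to mm9 with TopHat2 2.0.9, and reads were counted per NCBI gene of UCSC refGene. The deposited values are these counts, not normalized. Whether the counting used strand or reads with several places is not given in the sources used here. Symbols came from RefSeq (GRCm38.p6) for 23929 of the 24013 genes. RefSeq also lists 1 pseudogene of Tgif1 and 2 of Tgif2, not analysed here, and genes that overlap Pknox2, Meis1, Meis2 and Tgif2, so that reads of these members are uncertain where genes overlap. Transcript lengths and sequences were not used here, so levels per length and shares of subfamilies were not computed.

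edgeR 4.0.16 (R 4.3.3) was used with filterByExpr, which left 13339 genes, and TMM. All 8 libraries entered 1 quasi-likelihood fit with a mean for each condition, which pools the spread, and tests were two-sided with Benjamini-Hochberg adjustment over all genes. Standard errors are the coefficient divided by the root of F. log2 CPM used a prior count of 2. The p-values measure only the spread between these replicas. The fit was also run on simulated counts in which no library stood apart, so that run does not cover the replicas of P cells at day −2. Its outcome is not reported here. The labels do not say that replica numbers mark shared cultures. Correlations of the deviations of same-numbered replicas between conditions ran from −0.36 to 0.21 over all genes tested, and from −0.75 to 0.44 over the 5600 genes with a mean log2 CPM over 5. The highest was that of C and P cells at day −2, and since not every pair of conditions was above 0.1 the numbers were not taken to pair the samples. Alternatives were DESeq2 1.42.0, other scalings (its size factors, library totals), other filters on low counts, a fit of only the conditions compared, the replica number as a block, other thresholds, and omission of each library. All 9 members are named, and of each list at most the 4 genes with the lowest p in a comparison. The members and lists were chosen with earlier results of these data known. The counts over the genes reported elsewhere as regulated by Prep1 or Meis1 are not reported here.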

Additional observations from a re-analysis of the deposited data

How the results depend on the processing

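Over the 5 comparisons, 45 results of the members were computed under the alternatives, which gave 756 values. Of these, 623 kept their direction and side of the threshold, 76 kept the direction but no longer passed, 30 newly passed and 27 changed direction. The induction of Meis2 in both kinds of cell and the fall of Tgif1 in C cells passed under all 17 alternatives. The fit of only the conditions compared was not made for the interaction, and the 2 alternatives planned for levels per length were not run. The causes of the changes that follow were not tested.

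The numbers of members past the test, given in the order P against C cells at day −2 and day 1, then induction in C and in P cells, were 2, 1, 5 and 7 as reported. They were 1, 0, 4 and 5 without a filter on low counts, 0, 3, 6 and 1 with only the conditions compared, 1, 0, 3 and 4 at an adjusted p under 0.05, and 1, 0, 3 and 3 with the ratio threshold. With 1 library left out they ran from 0 to 6, 0 to 4, 2 to 7 and 1 to 8, and from 0 to 5 for the interaction.

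With the replica number as a block, where the numbers were not taken to pair the samples, the counts were 1, 0, 4 and 6, and the log2 ratio of Prep1 was −0.62 at day −2 and −0.65 at day 1 (edgeR adjusted p = 0.131 and 0.147). With the day 1 numbers of P cells crossed, a block chosen after seeing the data, they were again 1, 0, 4 and 6, with −0.62 and −0.65 (0.124 and 0.142). Crossing all day 1 numbers gave 3, 1, 6 and 7.

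At day −2 the knockdown of Prep1 no longer passed the test without a filter (−0.62, edgeR adjusted p = 0.118) or with only the conditions compared (−0.63, 0.374). At day 1 it no longer passed without a filter (−0.67, 0.141) or with library totals (−0.55, 0.151). With 1 library left out, it ran from −0.67 to −0.57 at day −2 and from −0.70 to −0.65 at day 1. Library totals turned the direction of results that did not pass in either scaling: P against C cells, Meis2 (−0.11) and Pbx2 (−0.063) at day −2 and Tgif1 (0.054) at day 1, induction of Pbx3 in C cells (−0.017), and the interaction of Prep1 (0.25) and Pbx2 (0.26).

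Leaving out 1 library also turned directions. For P against C cells at day −2 the ranges were −0.17 to 0.083 for Prep2, −1.39 to 0.035 for Meis1, −0.073 to 0.20 for Meis2, −0.70 to 0.086 for Pbx3 and −0.48 to 0.026 for Tgif1. At day 1 they were −0.18 to 0.34 for Pbx3 and −0.21 to 0.093 for Tgif1. For induction in C cells they were −0.25 to 0.025 for Meis3 and −0.17 to 0.35 for Pbx3. For the interaction they were −0.11 to 0.011 for Prep1, −0.0020 to 0.23 for Prep2, −0.45 to 1.00 for Meis1, −0.085 to 0.0052 for Pbx2, −0.031 to 0.78 for Pbx3 and −0.10 to 0.43 for Tgif1.

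Some other members no longer passed the test under an alternative, with their direction unchanged. With only the conditions compared, Meis3 at day −2 (edgeR adjusted p = 0.204) and, for induction in P cells, Prep1 (0.314), Prep2 (0.208), Meis1 (0.210), Meis3 (0.210), Tgif1 (0.146) and Tgif2 (0.119) did not pass. With library totals, the induction of Prep1 (0.178) and Meis1 (0.137) in C cells and of Meis3 in P cells (0.112) did not pass, and Meis3 passed at day 1 in place of Prep1 (log2 ratio 0.74, edgeR adjusted p = 0.0874).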
